A study of Homo sapiens with 30 samples.

Results

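The nuclear-encoded genes of oxidative phosphorylation (OXPHOS) were followed in human cells treated with Omomyc, a dominant-negative form of MYC. They were taken from a table of 57992 genes by a rule on names. A member is a protein-coding gene outside the mitochondrial chromosome whose symbol starts with any of 13 prefixes (NDUFA, NDUFB, NDUFC, NDUFS, NDUFV, SDH, UQCR, COX4, COX5, COX6, COX7, COX8 or ATP5). The rule found 103 genes, of which 46 belong to complex I, 8 to complex II, 9 to complex III, 19 to complex IV and 21 to complex V. It uses no measured value. It also takes in assembly factors, tissue isoforms and retrocopies, and it leaves out genes of the same pathway with other names, which were followed as separate lists.

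RNA-Seq was carried out on 30 libraries, 3 per group, from HCT116 cells, a colorectal carcinoma line, and from Ramos cells, a B cell line from a Burkitt lymphoma. HCT116 cells were untreated or treated with 2 μM or 10 μM Omomyc for 6 h or 24 h. Ramos cells were untreated or treated with 500 nM or 2.5 μM Omomyc for 6 h or 24 h. The doses are those of the labels, and for the lower dose in HCT116 cells the paper's methods give another value. Libraries whose titles give 24 h carry a label tag of 4 h, and the titles were followed. Each line has a single untreated group with no stated time, so the 4 comparisons with untreated cells in a line share their controls. According to the paper's methods, Omomyc was given to HCT116 cells with a protein transfection reagent, and whether untreated cells also received it is not stated, so its part in the differences cannot be told apart from that of Omomyc. The paper does not describe the Ramos libraries. Nothing says that the 3 replicates of a group were separate cultures, so the p-values measure the spread between these libraries, which may be technical.

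OXPHOS passes electrons from NADH through complex I, or from succinate through complex II, to complexes III and IV, and complex V (ATP synthase) uses the resulting proton gradient to make ATP. A few core subunits are encoded by the mitochondrial genome. The nucleus encodes the others, which comprise catalytic subunits, many small supernumerary subunits and the assembly factors that build the complexes, and MYC is known as an activator of genes of mitochondrial biogenesis.

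The values are RPKM, read numbers divided by gene length and by library size. Their sum over a library was between 593633 and 1051040 in HCT116 cells and between 783788 and 973736 in Ramos cells, and the highest sum was that of the third replicate of 10 μM at 6 h in HCT116 cells. The number of reads is unknown, and the correlation of log2 values between replicates was between 0.973 and 0.996 over 30 pairs. Epithelial markers summed to between 1414 and 2231 RPKM in HCT116 cells and to at most 1.74 in Ramos cells, and B cell markers to between 1498 and 1672 RPKM in Ramos cells and to at most 3.08 in HCT116 cells. Differences were tested with limma on log2(RPKM + 0.5) over every gene that averaged 0.5 RPKM or more, so a fold change of a low gene is understated. A gene is called higher or lower at a Benjamini-Hochberg adjusted p under 0.05 over all genes tested. For 3 libraries against 3, the two-sided exact permutation test cannot go below p = 0.1, which is its value wherever 2 groups are said not to overlap.

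Between 93 and 96 members had at least 0.5 RPKM in each library. Together they made up between 1.09% and 1.70% of the summed RPKM in HCT116 cells and between 1.29% and 1.65% in Ramos cells. In HCT116 cells the highest mean levels were those of ATP5F1B, the catalytic β subunit of ATP synthase (467 RPKM), UQCRH, the hinge protein of complex III (377 RPKM), and ATP5F1A, the α subunit of ATP synthase (356 RPKM). In Ramos cells they were those of ATP5F1A (497 RPKM), ATP5F1B (484 RPKM) and COX6A1, a complex IV subunit (392 RPKM).

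Tissue isoforms separated sharply from the forms used in most cells. COX4I1 had 355 RPKM in both lines, whereas COX4I2, known from lung, was listed at 0 in 14 of 15 HCT116 libraries and in 15 of 15 Ramos libraries. COX6A2 and COX7A1, the muscle forms, and COX7B2 were listed at 0 in all 30 libraries, whereas COX6A1, COX7A2 and COX7B had means of at least 88.4 RPKM in both lines. COX8C, a testis form, was listed at 0 in 12 HCT116 and 14 Ramos libraries, and COX8A had 279 RPKM in HCT116 and 294 RPKM in Ramos cells. COX6B2, another testis form, had between 0.132 and 0.777 RPKM in HCT116 cells and at most 0.0319 RPKM in Ramos cells. The retrocopies UQCRHL and ATP5MGL stayed under 0.87 RPKM or at that value in every library, but short reads may not separate them from UQCRH and ATP5MG. The readthrough transcript NDUFC2-KCTD14 ranged from 0 to 5.05 RPKM in HCT116 cells and was listed at 0 in 14 of 15 Ramos libraries, and its reads may be shared with NDUFC2.

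Untreated HCT116 and Ramos cells differed in most members. Of 95 members tested, 22 were higher in HCT116 cells and 51 were lower, beside 45.7% and 39% of all genes. When all libraries were set to the same total of RPKM (equal-sum scaling) the balance turned, with 53 higher and 17 lower, and with a trend on transcript length removed it was 42 higher and 40 lower. Other scalings move all genes together and not only the members, and the shares of all genes under them are not given here. In bulk libraries, fewer cells of a type and less RNA per cell cannot be told apart.

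Among the subunits, SDHC, which anchors complex II in the inner membrane and binds haem, differed the most. Its RPKM was 24.7, 19.9 and 21.5 in the untreated HCT116 libraries and 5.81, 4.05 and 5.17 in the Ramos libraries, a log2 difference of 2.04 ± 0.14 (SE, adjusted p = 5.4e-06). NDUFS4, an accessory subunit of the electron input module of complex I, had 60.9, 60.7 and 64.2 RPKM in HCT116 and 14.1, 18.7 and 14.0 RPKM in Ramos cells (log2 difference 1.97 ± 0.11, adjusted p = 2.2e-06). NDUFB4, a subunit of the membrane arm, followed with 1.38 ± 0.08 (adjusted p = 3e-06). These genes were several-fold higher in HCT116 cells, with no overlap between the lines.

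Lower in HCT116 cells were ATP5S, a protein associated with ATP synthase (log2 difference -1.91 ± 0.14), ATP5MG, a small membrane subunit of ATP synthase (-1.84 ± 0.08), and NDUFB2, a subunit of the membrane arm of complex I (-1.83 ± 0.06), with adjusted p of 9.1e-06, 4.1e-07 and 8.6e-08. ATP5S had between 2.17 and 3.28 RPKM in the untreated HCT116 libraries and between 10.5 and 12.1 RPKM in the Ramos libraries. ATP5S, ATP5MG and NDUFB2 each overlap a gene on the other strand, as does SDHC. ATP5MG and NDUFB2 also each overlap a gene on the same strand, with which reads may be shared. NDUFA4, a complex IV subunit, and its hypoxia-induced paralog NDUFA4L2 were both lower in HCT116 cells, by -1.44 ± 0.06 and -1.86 ± 0.15, and NDUFA4L2 was near the filter there, between 0.399 and 0.506 RPKM. ATP5IF1, the inhibitor of ATP synthase, had 94.0, 92.4 and 93.7 RPKM in HCT116 and 213, 219 and 227 RPKM in Ramos cells (-1.23 ± 0.04, adjusted p = 8.3e-08). ATP5MC1, ATP5MC2 and ATP5MC3, which encode the same mature ring subunit, were all lower in HCT116 cells, by -0.66 ± 0.05, -0.83 ± 0.06 and -0.72 ± 0.04, and with equal-sum scaling ATP5MC1 (-0.08) and ATP5MC3 (-0.14) were not called. The other members named in this comparison kept their direction and their call with equal-sum scaling, median-ratio scaling and the trend on length or GC content removed. Of the 13 tested members of complex IV, 9 were lower in HCT116 cells and 0 were higher at an adjusted p under 0.05, beside 39% and 45.7% of all genes. This count for complex IV is not given with equal-sum scaling, which turned the balance of the members.

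**Figure D1:**
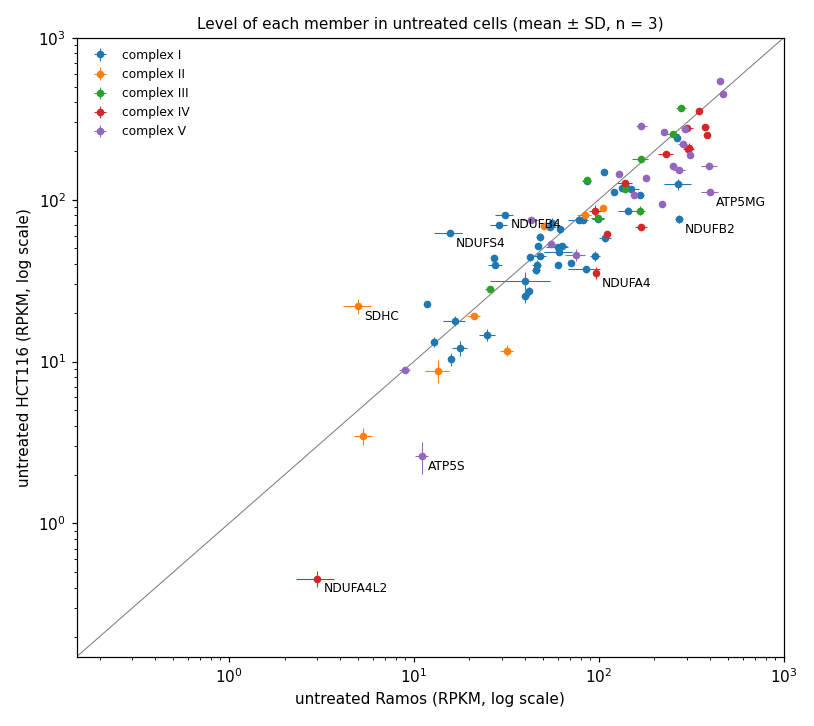
Level of each tested member in untreated Ramos cells (x axis, RPKM, log scale) and untreated HCT116 cells (y axis, RPKM, log scale), as mean with SD of 3 libraries, coloured by complex, with the line of equal level. SDHC and NDUFS4 lie above the line, and ATP5S, NDUFA4L2, ATP5MG and NDUFB2 lie below it.

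In HCT116 cells treated with 2 μM Omomyc for 6 h, the members did not move as a block. NDUFS1, SDHA, UQCRC2 and ATP5F1A were among the members that fell, and NDUFAF8, NDUFAF4 and COX7B were among those that rose. Of 94 members tested, 33 were higher and 12 were lower, where 15.5% of all genes were higher and 31.8% were lower. The median log2 fold change was 0.12 over the members and -0.12 over all genes tested. Scaling decides the balance of rises and falls. With median-ratio scaling, 46 members were higher and 10 lower. With equal-sum scaling, 2 were higher and 37 lower, and the median of all genes moved to -0.42.

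The falls at this dose and time included subunits of complexes I, II, III and V. NDUFS1, the largest core subunit of complex I, which carries iron-sulphur clusters, had 65.5, 64.3 and 68.1 RPKM in the untreated libraries and 47.8, 42.8 and 42.0 RPKM after treatment (log2 fold change -0.57 ± 0.07, adjusted p = 0.00023). SDHA, the flavoprotein that oxidises succinate, had 70.9, 67.3 and 68.7 RPKM before and 50.2, 41.1 and 47.6 RPKM after treatment (-0.57 ± 0.08, adjusted p = 0.00045). Every treated library was below every untreated one for both genes. The pseudogenes named after SDHA had a summed level of 44.8% of that of SDHA, so part of its reads may be theirs.

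UQCRC2, a core protein of complex III, had 114, 116 and 117 RPKM before and 87.3, 76.7 and 78.6 RPKM after treatment (-0.52 ± 0.07, adjusted p = 0.00031). ATP5F1A had 437, 448 and 456 RPKM before and 359, 297 and 312 RPKM after treatment (-0.47 ± 0.08, adjusted p = 0.0014). NDUFV1, which binds NADH in complex I, UQCRC1, the other core protein of complex III, and ATP5F1B also fell, by 0.44, 0.36 and 0.28 on the log2 scale. Among the assembly factors, SDHAF4, which binds SDHA during the assembly of complex II, had the largest fall of all members (-0.71 ± 0.12, adjusted p = 0.0015), from between 3.09 and 3.91 RPKM to between 1.76 and 2.00 RPKM. NDUFAF3 and NDUFAF1, assembly factors of complex I, fell by 0.45 and 0.31. Of the 8 assembly factors of complex I, 4 were higher and 2 lower, and of the 4 of complex II, 2 were higher and 1 was lower.

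The rises were spread over all 5 complexes. NDUFAF8 and NDUFAF4, assembly factors of complex I, rose the most, by 0.79 ± 0.10 (adjusted p = 0.00037) and 0.78 ± 0.09 (adjusted p = 0.00018). NDUFAF4 went from 27.2, 22.8 and 25.9 RPKM to 46.6, 44.9 and 39.6 RPKM. COX7B, a small subunit of complex IV, went from 66.0, 66.9 and 70.7 RPKM to 96.7, 122 and 88.9 RPKM (0.58 ± 0.11, adjusted p = 0.0020). SDHAF2 and SDHAF3, assembly factors of complex II, rose by 0.58 and 0.57, and NDUFB9, a subunit of the membrane arm of complex I, rose by 0.52 ± 0.06 (adjusted p = 0.00028). Of these rises, those of NDUFAF8 and NDUFAF4 stayed called with equal-sum scaling (0.46 and 0.45), and COX7B, SDHAF2, SDHAF3 and NDUFB9 were then above 0 but not called (0.24, 0.24, 0.24 and 0.19).

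The core subunits of complex I went both ways. NDUFS1 and NDUFV1 fell, NDUFS3 and NDUFS8 rose (0.28 and 0.30), and NDUFS7 and NDUFV2 were not called. Of the SDH subunits, SDHA fell and SDHC rose (0.37 ± 0.12, adjusted p = 0.031), and SDHB and SDHD were not called. The inhibitor ATP5IF1 rose by 0.33 ± 0.08 (adjusted p = 0.011). Equal-sum scaling turned the direction of NDUFS3 (-0.06), NDUFS8 (-0.03) and ATP5IF1 (-0.01), SDHC had 0.04, and none of the 4 was called.

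**Figure D2:**
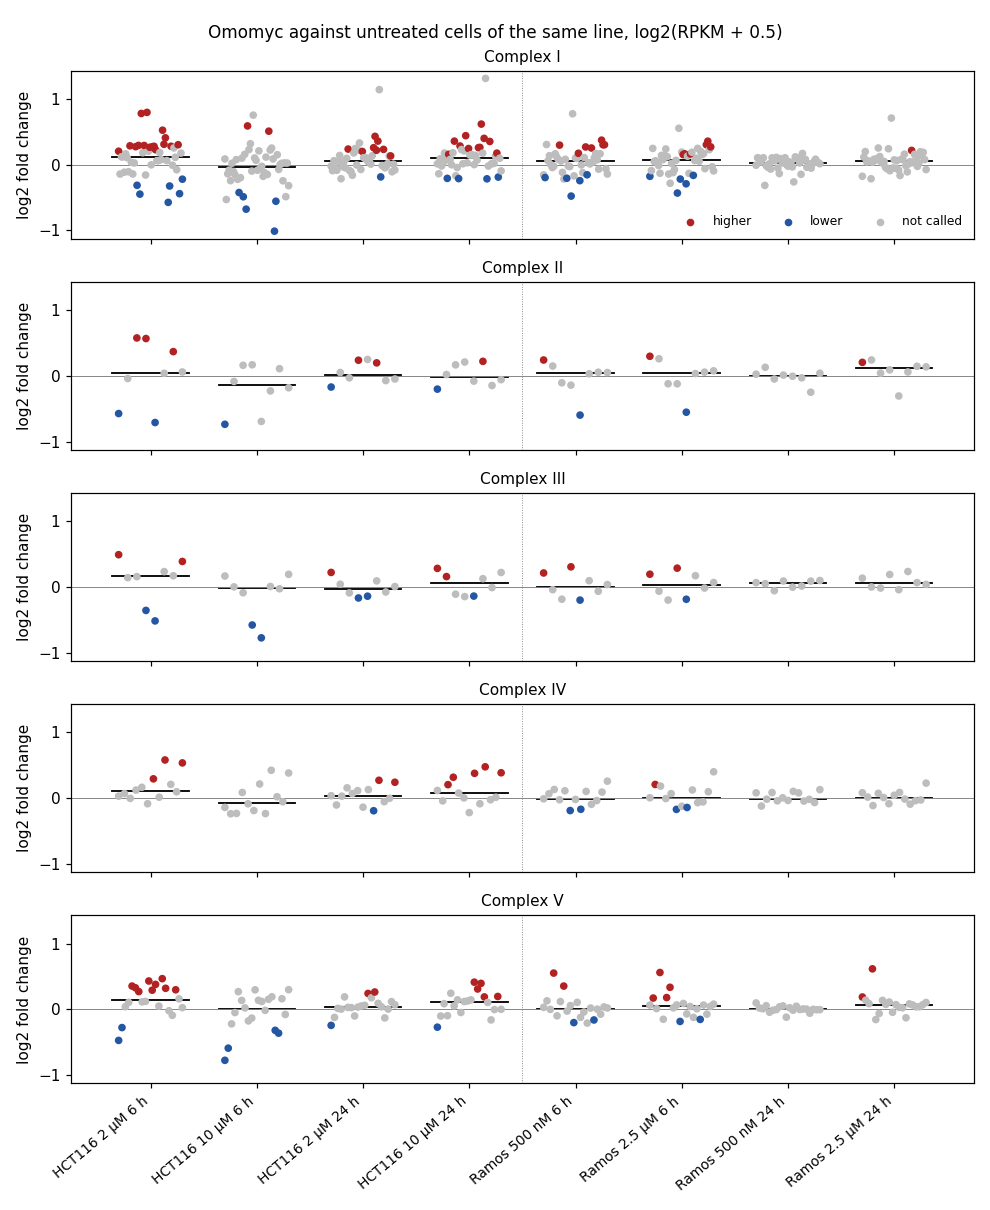
Log2 fold change of every tested member (points) against untreated cells of the same line, on log2(RPKM + 0.5), for each Omomyc group (x axis) and complex (rows), with red for higher, blue for lower and grey for not called, and the median as a black bar. Called members number 45 at 2 μM and 6 h in HCT116 cells, and those of 500 nM at 24 h in Ramos cells are all grey.

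Longer transcripts behaved differently from shorter ones in the HCT116 comparisons with untreated cells, and the members' lengths differ. Over the members tested, the log2 fold change at 2 μM and 6 h had a Spearman correlation of -0.45 and a Pearson correlation of -0.39 with the log2 of the median transcript length (94 genes, from the same libraries, given as a description). Over all genes the Spearman correlation was -0.28, and it was between -0.26 and -0.16 in the other HCT116 comparisons with untreated cells. In those of Ramos cells it was between -0.03 and 0.02 over all genes and between -0.02 and 0.22 over the members. The 33 members that rose had a median transcript length of 626 bases and the 12 that fell one of 1912 bases. Of 60 members under 1000 bases, 27 were higher and 1 was lower, where 27.8% and 11.9% of all genes of that length were. Of 13 members over 2000 bases, 2 were higher and 5 were lower, where 10.2% and 40.1% of all genes of that length were.

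NDUFS1, SDHA, UQCRC2 and ATP5F1A stayed called with the trend on length removed. In that fit they had log2 fold changes of -0.43, -0.45, -0.48 and -0.35 in place of -0.57, -0.57, -0.52 and -0.47. NDUFB9, COX7B, NDUFAF8 and NDUFAF4 had 0.44, 0.47, 0.69 and 0.93 and were called. Over the members, 25 were then higher and 14 lower. With a trend on GC content removed in its place, 49 were higher and 9 lower. The shares of all genes with either trend removed or under other scalings are not given, here or in the comparisons below.

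**Figure D3:**
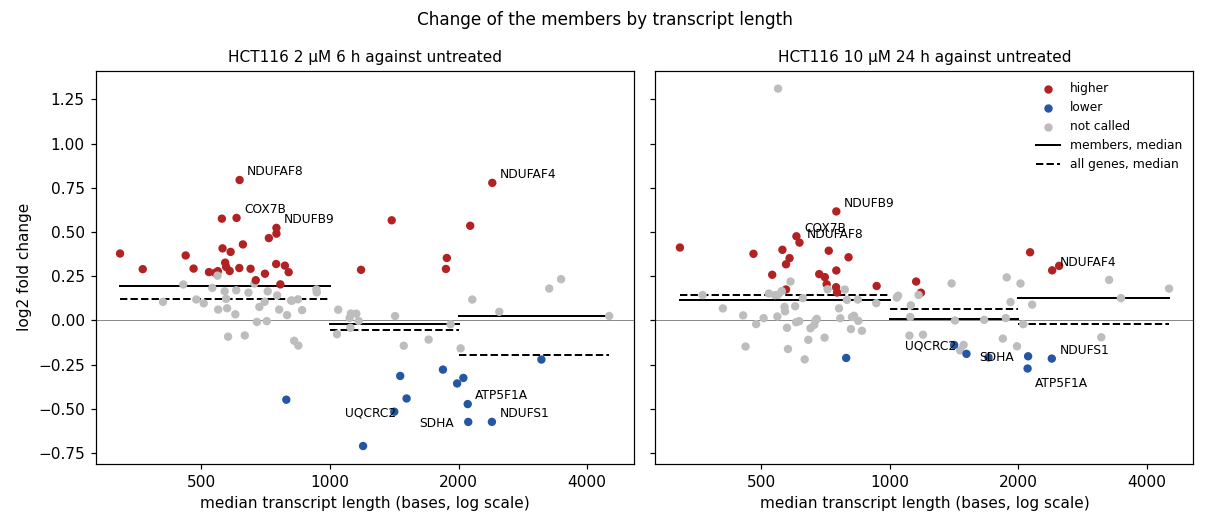
Log2 fold change of each tested member (y axis) against its median transcript length (x axis, bases, log scale) for 2 μM at 6 h and 10 μM at 24 h in HCT116 cells, coloured by call, with the median of the members (solid) and of all genes (dashed) under 1000, from 1000 to 2000 and over 2000 bases. At 6 h the median of all genes steps down from 0.12 to -0.19 with length, and NDUFS1, SDHA, UQCRC2 and ATP5F1A lie below both lines.

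At 10 μM and 6 h, 2 members rose and 12 fell of 94 tested, beside 8.84% and 21.2% of all genes. NDUFS1 fell the most, to 34.8, 36.8 and 26.6 RPKM (log2 fold change -1.01 ± 0.13, adjusted p = 0.0024), followed by ATP5F1A (-0.78 ± 0.17) and UQCRC2 (-0.77 ± 0.12), with adjusted p of 0.015 and 0.0044. SDHA had 45.7, 52.3 and 29.1 RPKM (-0.74 ± 0.20, adjusted p = 0.029), and the value of the third replicate was the lowest of the 30 libraries. The 2 rises were those of NDUFAF4 (0.59 ± 0.11, adjusted p = 0.0071) and NDUFB9 (0.51 ± 0.11, adjusted p = 0.013).

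The third replicate of this group stood apart in the members too. COX7B had 79.0, 73.2 and 131 RPKM and NDUFB3, a complex I subunit, 43.3, 43.2 and 93.3 RPKM. Without that library, 4 members were higher and 41 lower, beside 20.1% and 31.1% of all genes, a total of 45 in place of 14, and NDUFS1, ATP5F1A, UQCRC2 and SDHA had log2 fold changes of -0.87, -0.58, -0.65 and -0.49. NDUFB9 and NDUFAF4 then had 0.50 and 0.54, and SDHAF4, with -0.69 in all 3 libraries, had -1.06. Leaving out any of the 3 untreated libraries left 4 calls, 1 higher and 3 lower, and the all-gene shares were then between 3.43% and 4.06% higher and between 8.69% and 9.90% lower. ATP5F1A and NDUFB9 lost the call each time, with adjusted p between 0.060 and 0.066 and between 0.051 and 0.077. Under equal-sum scaling, 0 members were higher and 48 lower, and neither NDUFB9 (0.02) nor NDUFAF4 (0.10) was called. Removing the trend on length left NDUFS1 (-0.86), UQCRC2 (-0.71), ATP5F1A (-0.65) and SDHA (-0.61) called, and so did removing that on GC content, with -0.83, -0.61, -0.62 and -0.63.

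At 24 h the same comparison gave smaller falls. At 2 μM, 15 of 95 members tested were higher and 6 were lower, beside 16.6% and 10.8% of all genes. ATP5F1A fell by 0.24 ± 0.05 (adjusted p = 0.0072), COX7A2L, a factor of respiratory supercomplexes, by 0.19 ± 0.04 (adjusted p = 0.013), and NDUFS1 by 0.19 ± 0.05 (adjusted p = 0.016). With all groups in one fit none of these falls was called (adjusted p of 0.28, 0.54 and 0.30). NDUFS1 also lost the call without the third untreated replicate (adjusted p = 0.070). NDUFS1 had 59.1, 58.5 and 56.1 RPKM, all under the untreated libraries. SDHA, UQCRC1 and UQCRC2 also fell, by 0.17, 0.17 and 0.14.

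The largest rises at 2 μM and 24 h were those of NDUFB9 (0.43 ± 0.05, adjusted p = 0.00083), NDUFC2, a complex I subunit (0.36 ± 0.05, adjusted p = 0.0026), and COX7B (0.27 ± 0.06, adjusted p = 0.011). SDHB, the iron-sulphur subunit of complex II, rose by 0.20 ± 0.04 (adjusted p = 0.012), from 87.2, 88.2 and 91.2 to 104, 104 and 98.3 RPKM. Under equal-sum scaling 1 member, NDUFB9 (0.27), was higher and 15 were lower, while NDUFC2 (0.20), COX7B (0.12) and SDHB (0.04) were not called, and with median-ratio scaling 9 were higher and 12 lower. With the trend on length removed, 5 were higher and 20 lower. COX7B lost the call in that fit (adjusted p = 0.14) and with all groups in one fit (adjusted p = 0.37).

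At 10 μM and 24 h, 24 of 95 members tested were higher and 7 were lower, beside 19.5% and 15.7% of all genes. Equal-sum scaling gave 2 higher and 16 lower. With median-ratio scaling it was 16 and 11, and with the trend on length removed 11 and 17. NDUFB9 had the largest rise, from 146, 156 and 142 RPKM to 231, 229 and 222 RPKM (0.62 ± 0.05, adjusted p = 4.9e-05). It was followed by COX7B (0.48 ± 0.08, adjusted p = 0.0016) and NDUFAF8 (0.44 ± 0.12, adjusted p = 0.017).

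The largest falls at 10 μM and 24 h were those of ATP5F1A, to 379, 390 and 342 RPKM (-0.27 ± 0.06, adjusted p = 0.0080), NDUFS1 (-0.22 ± 0.06, adjusted p = 0.024) and NDUFAF3 (-0.21 ± 0.06, adjusted p = 0.023). The falls of NDUFS1 and NDUFAF3 and the rise of NDUFAF8 were each called in 9 of 16 alternative fits. NDUFS1 and NDUFAF3 lost the call without the first or the third untreated replicate and without the first or the third treated replicate, with adjusted p between 0.061 and 0.090 for NDUFS1 and between 0.054 and 0.088 for NDUFAF3. NDUFAF3 also lost it with a replicate block (adjusted p = 0.052) and NDUFS1 with the trend on GC content removed (adjusted p = 0.079), and both lost it with no filter or with all groups in one fit. NDUFAF8 lost it without the third untreated or the second treated replicate (adjusted p of 0.062 and 0.053), with no filter, with all groups in one fit, with equal-sum scaling and with either trend removed. SDHA and NDUFV1 fell by 0.20 and 0.19. SDHB and NDUFS3 rose by 0.22 and 0.35. Complex IV had 5 rises and 0 falls among its 13 tested members at an adjusted p under 0.05 (COX7B, NDUFA4, COX7A2, COX6A1 and COX5B). Under equal-sum scaling these 5 had between 0.02 and 0.29 and were not called.

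Over the 4 comparisons in HCT116 cells, ATP5F1A, NDUFS1, SDHA and UQCRC2 were lower in all 4, and UQCRC1 and NDUFAF3 in 3. NDUFB9 was higher in all 4, and 11 members were higher in 3, among them NDUFAF4, COX7B, NDUFA4 and NDUFS3. No member was higher in one of these comparisons and lower in another. These comparisons share the untreated libraries, so they are not independent. Over 64 alternative fits, which change the pseudocount, filter, scaling, block, length or GC trend or leave out a library, the log2 fold change of each of the 6 fallers was under 0 in 64. The range was from -1.50 to -0.16 for NDUFS1, from -1.23 to -0.14 for SDHA, from -1.27 to -0.11 for UQCRC2 and from -1.27 to -0.21 for ATP5F1A. Of the 12 members higher in 3 or 4 comparisons, NDUFB9 and NDUFAF4 were above 0 in 64 of 64, and the other 10 in between 57 and 63. Each of the 6 fallers was called in between 44 and 59 of the 64 fits, and each of the 12 in between 29 and 59.

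**Figure D4:**
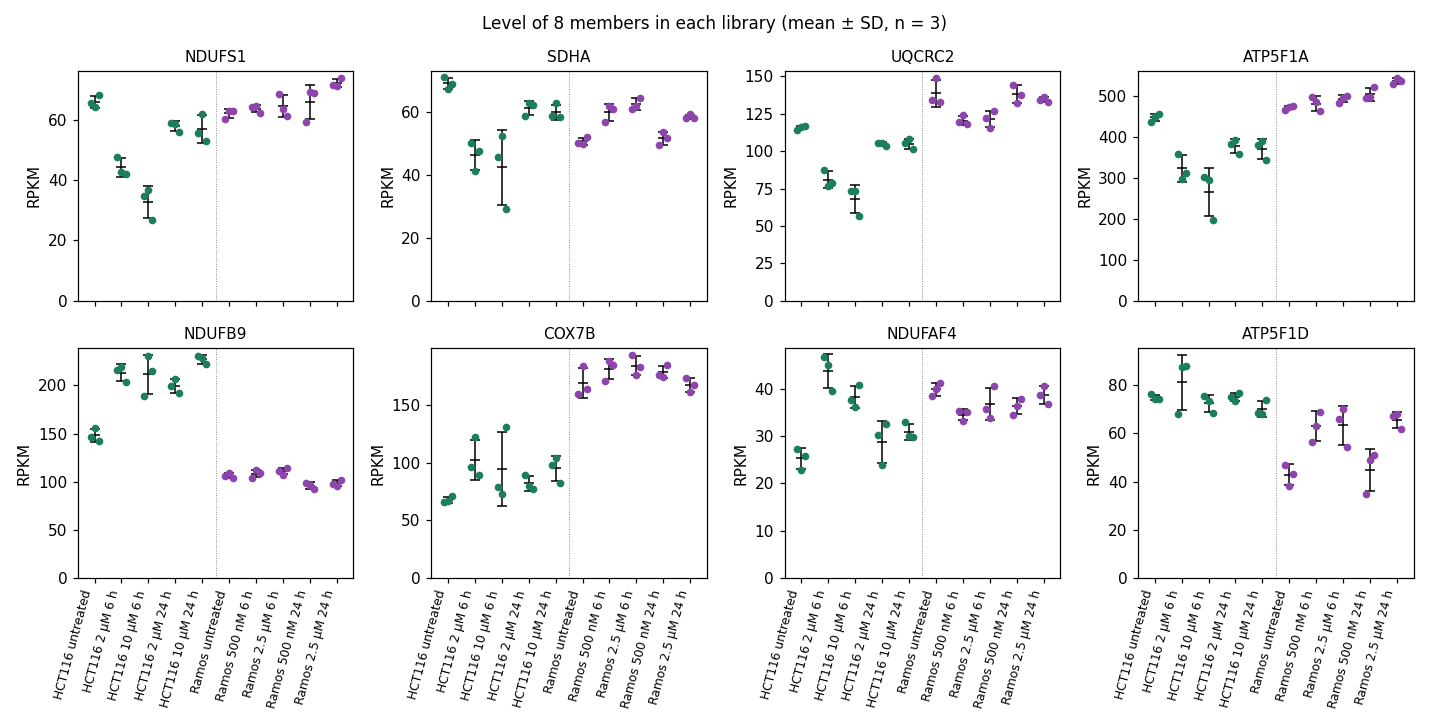
RPKM (y axis, from 0) of 8 members in each library of the 10 groups (x axis), with the mean and SD of 3 libraries. NDUFS1, SDHA, UQCRC2 and ATP5F1A drop at 6 h in HCT116 cells and lie nearer the untreated level at 24 h, NDUFB9 stays raised, and ATP5F1D is raised in treated Ramos cells except at 500 nM and 24 h.

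The members called in the most of the 8 comparisons with untreated cells were SDHA (7), UQCRC2 (6) and NDUFS1 (5), and ATP5F1A, UQCRC1 and UQCR10 also had 5. For the first 3, the 250 bases before the RefSeq start site are shown (GRCh38.p14), since these are the genes whose transcripts moved most often. The windows are chr5:218070-218319 (+) for SDHA, chr16:21953111-21953360 (+) for UQCRC2 and chr2:206159445-206159694 (-) for NDUFS1. Capitals mark the ETS core CCGGAAGT in either direction.
SDHA: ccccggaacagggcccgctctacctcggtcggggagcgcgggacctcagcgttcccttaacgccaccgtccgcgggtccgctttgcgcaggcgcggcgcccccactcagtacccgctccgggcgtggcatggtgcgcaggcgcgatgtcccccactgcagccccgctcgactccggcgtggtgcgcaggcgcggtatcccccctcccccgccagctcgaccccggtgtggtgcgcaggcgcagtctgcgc
UQCRC2: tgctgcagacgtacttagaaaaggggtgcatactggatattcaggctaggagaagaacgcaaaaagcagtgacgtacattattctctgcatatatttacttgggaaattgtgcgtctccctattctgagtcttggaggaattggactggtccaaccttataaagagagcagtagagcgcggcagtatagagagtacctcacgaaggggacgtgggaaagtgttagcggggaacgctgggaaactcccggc
NDUFS1: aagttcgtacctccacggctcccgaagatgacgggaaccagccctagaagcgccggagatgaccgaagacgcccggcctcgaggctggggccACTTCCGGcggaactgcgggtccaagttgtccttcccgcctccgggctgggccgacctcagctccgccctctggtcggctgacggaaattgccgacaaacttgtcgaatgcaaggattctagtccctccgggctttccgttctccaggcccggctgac

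The windows of SDHA and UQCRC2 held none of the 3 motifs searched, and that of NDUFS1 held the ETS core. The search covered the 300 bases around the start site on both strands for the E box CACGTG, the NRF1 core CGCATGCG and the ETS core CCGGAAGT. RefSeq windows matched 80 of the 103 members by symbol. The E box was in 8 of the 80 (10%) and in 8.88% of 15843 promoters of protein-coding genes. The NRF1 core was in 11 members (13.8%) and in 2.88% of all such promoters, and the ETS core in 10 (12.5%) and 6.19%.

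Of the 11 members with the NRF1 core, 4 were higher in at least 1 HCT116 comparison and 1, NDUFA8, was lower. Of the 10 with the ETS core, 4 were higher and 2, NDUFS1 and ATP5PD, a stalk subunit of ATP synthase, were lower. Of the 8 with an E box, 3 were higher and 1, ATP5PB, another stalk subunit, was lower. Over all 80 these counts were 32 and 15. A match of letters is a description of the window and not a binding site.

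In Ramos cells treated with 500 nM Omomyc for 6 h, 12 of 94 members tested were higher and 11 were lower, beside 13.8% and 9.73% of all genes. ATP5F1D, the δ subunit of ATP synthase, rose the most, from 47.0, 38.3 and 43.2 RPKM to 56.5, 63.2 and 68.9 RPKM (0.55 ± 0.09, adjusted p = 0.0028). NDUFS7, a core subunit of complex I that carries an iron-sulphur cluster, rose by 0.37 ± 0.11 (adjusted p = 0.041, called in 7 of 16 alternative fits) and ATP5MC1 by 0.35 ± 0.06 (adjusted p = 0.0033). UQCRC1, NDUFV1 and SDHA, which had fallen in HCT116 cells, rose by 0.31, 0.30 and 0.24. SDHA went from 50.1, 49.8 and 51.9 to 56.8, 61.9 and 60.8 RPKM.

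The largest falls at 500 nM and 6 h were those of SDHAF4 (-0.60 ± 0.15, adjusted p = 0.020), NDUFAF7, an assembly factor of complex I (-0.48 ± 0.07, adjusted p = 0.0014), and NDUFB3 (-0.24 ± 0.06, adjusted p = 0.019). NDUFAF7 was called in 16 of 16 alternative fits, SDHAF4 in 12 and NDUFB3 in 10. With equal-sum scaling NDUFB3 had -0.15 and was not called (adjusted p = 0.24). NDUFAF7 went from 15.8 RPKM in each untreated library to 11.4, 10.5 and 11.8 RPKM. The count of 23 went to 14 and 12 without the first or second untreated replicate. It went to 7 and 6 without the second or the third treated replicate. The all-gene shares fell too in these fits. They were between 8.002% and 11.1% higher and between 5.54% and 7.83% lower, in place of 13.8% and 9.73%. Equal-sum scaling gave a count of 17 higher and 2 lower, and median-ratio scaling one of 7 and 15.

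At 2.5 μM and 6 h, 14 of 94 members tested were higher and 11 were lower, beside 17.3% and 10.7% of all genes. ATP5F1D rose by 0.56 ± 0.10 (adjusted p = 0.0043), ATP5MC1 by 0.33 ± 0.05 (adjusted p = 0.0016) and NDUFS6, a complex I subunit, by 0.30 ± 0.06 (adjusted p = 0.0071). SDHA rose by 0.30 ± 0.04, UQCRC1 by 0.29 ± 0.04, NDUFV1 by 0.27 ± 0.06 and ATP5F1B by 0.17 ± 0.04, with adjusted p of 0.0016, 0.0019, 0.014 and 0.013. UQCRC2 fell by 0.19 ± 0.06 (adjusted p = 0.037), and with equal-sum scaling it had -0.05 and was not called.

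SDHAF4 (-0.55 ± 0.12, adjusted p = 0.0089), NDUFAF7 (-0.43 ± 0.07, adjusted p = 0.0025) and NDUFB3 (-0.29 ± 0.06, adjusted p = 0.0078) again fell the most. NDUFB3 was not called with equal-sum scaling (-0.15, adjusted p = 0.10). Equal-sum scaling gave 45 higher and 2 lower, and median-ratio scaling 6 and 15. The count of 25 went to 14 without the first untreated replicate and to 14, 13 and 10 without the first, the second and the third treated replicate. The all-gene shares in these fits were between 11.1% and 14.4% higher and between 6.91% and 7.84% lower. ATP5F1D has the highest GC content of all members, 69.3%, and with a trend on GC content removed its log2 fold change was 0.17 at 500 nM and 0.20 at 2.5 μM, with adjusted p of 0.048 and 0.089. NDUFS7 and NDUFV1 had 0.05 and 0.13 at 500 nM in that fit and were not called. At 24 h neither NDUFAF7 (0.03 at 500 nM and -0.09 at 2.5 μM) nor SDHAF4 (-0.01 and -0.31) was called.

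At 24 h few members were called in Ramos cells. At 500 nM, 0 of 94 were higher and 0 lower with limma, beside 0.0146% and 0% of all genes, and 5 members had an unadjusted p under 0.05. The 95% interval of the log2 fold change was from -0.09 to 0.14 for SDHA and from -0.07 to 0.23 for NDUFS1. At 2.5 μM, 4 were higher, beside 3.3% of all genes, and 0 were lower at an adjusted p under 0.05, beside 1.31%. These were ATP5F1D (0.61 ± 0.07, adjusted p = 0.0072), NDUFS1 (0.22 ± 0.04, adjusted p = 0.026), SDHA (0.20 ± 0.04, adjusted p = 0.028) and ATP5F1A (0.19 ± 0.03, adjusted p = 0.025).

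ATP5F1D had 67.2, 67.9 and 61.7 RPKM at 2.5 μM and 24 h, above the 3 untreated libraries, and it stayed called with the trend on GC content removed (0.37, adjusted p = 0.0091). NDUFS1 had 71.4, 71.3 and 73.9 RPKM against 60.2, 63.0 and 63.0 RPKM. With median-ratio scaling NDUFS1 (0.16), SDHA (0.15) and ATP5F1A (0.13) were not called, and NDUFS1 and SDHA each kept the call in 6 of 16 alternative fits. Under equal-sum scaling, 63 members were higher and 0 lower. Every treated library had a lower summed RPKM (783788 to 828045) than every untreated one (879661 to 973736), so this scaling moves all genes up. In the fit as reported, the count of 4 went to 13 without the third untreated replicate. It went to 1 without the second untreated replicate or without any of the 3 treated replicates. The all-gene shares were 4.99% higher and 1.82% lower for the count of 13. For the counts of 1, which were rises, between 0.147% and 1.21% of all genes were higher.

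The effect of 2 μM in HCT116 cells was set against that of 2.5 μM in Ramos cells in a single model, although the doses are not equal and the delivery may differ. At 6 h the change of 34 of 95 members differed between the lines, 20 more positive in HCT116 cells and 14 more negative, beside 12.2% and 28.4% of all genes. SDHA had an interaction of -0.87 ± 0.09 (95% interval from -1.07 to -0.67, adjusted p = 3.7e-05), NDUFV1 one of -0.71 ± 0.10 and UQCRC1 one of -0.64 ± 0.07. NDUFAF4 (0.90 ± 0.12), SDHAF2 (0.70 ± 0.15) and SDHAF3 (0.69 ± 0.12) had the most positive interactions. With equal-sum scaling, 1 member was more positive and 59 more negative, and with median-ratio scaling 39 and 9. SDHAF2 (0.23) and SDHAF3 (0.22) were not called with equal-sum scaling.

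At 24 h the change of 15 members differed, 7 more positive in HCT116 cells and 8 more negative, beside 6.81% and 9.51% of all genes. The most negative interactions were those of ATP5F1D (-0.61 ± 0.09), ATP5F1A (-0.43 ± 0.05) and NDUFS1 (-0.40 ± 0.05), and the most positive those of SDHAF4 (0.56 ± 0.13), NDUFB9 (0.54 ± 0.06) and ATP5MG (0.39 ± 0.09). With equal-sum scaling, 0 were more positive and 63 more negative, and SDHAF4 (0.23), NDUFB9 (0.18) and ATP5MG (0.03) were not called. Of the members called in comparisons with untreated cells, ATP5F1A, ATP5F1B, NDUFS1, NDUFV1, SDHA and UQCRC1 were lower in at least 1 HCT116 comparison and higher in at least 1 Ramos comparison. ATP5MD, NDUFA1, NDUFAF4, NDUFB3 and NDUFB8 had the opposite pattern.

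Between 6 h and 24 h at 2 μM in HCT116 cells, 11 of 95 members were higher at 24 h and 17 were lower, beside 30.9% and 9.85% of all genes, and the median of all genes was 0.16. SDHAF4 rose by 0.96 ± 0.11 (adjusted p = 0.00056), SDHA by 0.40 ± 0.08 (adjusted p = 0.0054) and NDUFS1 by 0.39 ± 0.07 (adjusted p = 0.0033), and SDHAF2, NDUFAF4 and NDUFAF8 fell by 0.61, 0.60 and 0.46. The balance was 20 higher and 2 lower with equal-sum scaling and 4 and 43 with median-ratio scaling. The count of 28 went to 17, 16 and 16 without the first, the second and the third replicate at 24 h. The all-gene shares were then 22.7% higher and 6.71% lower, 21.9% and 6.63%, and 23.2% and 7.71%.

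At 10 μM, 5 of 94 members were higher at 24 h than at 6 h, beside 5.8% of all genes, and 0 were lower, beside 2.06%. NDUFS1 (0.80 ± 0.14, adjusted p = 0.020) and UQCRC2 (0.63 ± 0.13, adjusted p = 0.028) rose the most, followed by SDHB, COX5B and NDUFA8, which were not called with median-ratio scaling (0.30, 0.28 and 0.27). Without the third replicate at 6 h, 38 members were higher and 1 was lower, beside 16.8% and 6.64% of all genes. Without the first or second the counts were 1 and 2, all higher, beside 1.85% and 3.96% of all genes higher. Without any of the libraries at 24 h 0 members were called, beside at most 0.565% of all genes higher and at most 0.747% lower.

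In Ramos cells at 500 nM, 14 of 94 members were higher at 24 h than at 6 h and 14 were lower, beside 11.9% and 13.5% of all genes. At 2.5 μM 15 were higher and 12 lower, beside 12.7% and 10.4%. At 500 nM SDHAF4 (0.59 ± 0.15) and NDUFAF7 (0.51 ± 0.07) had the largest rises, and ATP5F1D (-0.50 ± 0.13), ATP5MC1 (-0.36 ± 0.06) and NDUFS7 (-0.33 ± 0.07) the largest falls. At 2.5 μM NDUFAF7 rose by 0.34 ± 0.07, NDUFAF2, another assembly factor of complex I, by 0.31 ± 0.07 and COX7A2L by 0.23 ± 0.03, and COX5B, NDUFB4 and NDUFS6 fell by 0.30, 0.29 and 0.28. The count at 500 nM was 15 in place of 28 without the second or the third replicate at 6 h, and that at 2.5 μM was 16 in place of 27 without the third replicate at 24 h. The all-gene shares were then 7.87% higher and 8.68% lower, 8.25% and 8.99%, and 8.84% and 7.44%. The splits with equal-sum scaling were 5 higher and 9 lower at 500 nM and 25 and 4 at 2.5 μM. With median-ratio scaling they were 14 and 10 at 500 nM and 13 and 14 at 2.5 μM.

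Few members were called between doses. In HCT116 cells 0 of 94 members were called between 10 μM and 2 μM at 6 h with limma, beside 0% of all genes higher and 0% lower. An unadjusted p under 0.05 was found for 7, all lower at 10 μM. The median log2 difference at 6 h was -0.19 over the members and -0.02 over all genes. Every library at 10 μM lay below every one at 2 μM for 20 members and above for 1, beside 10.8% and 7.34% of all genes. At 24 h it was 0 of 95, beside 0.14% and 0.0399%, with 12 under 0.05 unadjusted, 11 higher and 1 lower at 10 μM. The 95% interval of the log2 difference for SDHA was from -0.64 to 0.31 at 6 h and from -0.15 to 0.09 at 24 h. Without the third replicate of 10 μM, 2 members were lower at 6 h, beside 0.227% of all genes.

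In Ramos cells 0 of 94 members differed between 2.5 μM and 500 nM at 6 h with limma, beside 0.185% and 0.244% of all genes, with 1 under 0.05 unadjusted. At 24 h ATP5F1D was higher at 2.5 μM (0.56 ± 0.12, adjusted p = 0.036), beside 2.39% of all genes, and 0 were lower at an adjusted p under 0.05, beside 1.86%. ATP5F1D had 34.9, 48.9 and 50.9 RPKM at 500 nM. Without any of the 3 libraries of 2.5 μM it was no longer called, and with equal-sum scaling 30 members were higher.

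The mRNAs of the mitochondrial genome, which encode the partner subunits of these complexes, moved much further than the nuclear members in HCT116 cells. Their summed level was between 2407 and 3421 RPKM in untreated cells and between 13230 and 23920 RPKM after 2 μM for 6 h. Of the 13 mRNAs, 12, 12, 13 and 12 were higher at 2 μM and 10 μM at 6 h and at 2 μM and 10 μM at 24 h, with median log2 fold changes of 2.97, 2.79, 2.01 and 1.86. These counts were the same with equal-sum and median-ratio scaling. In the fit as reported, 15.5%, 8.84%, 16.6% and 19.5% of all genes were higher. MT-ND2, a complex I subunit, rose by 3.66 ± 0.27 at 2 μM and 6 h (adjusted p = 2.8e-05). MT-ND6, the only one of the 13 encoded on the other strand, was not called at 6 h or at 10 μM and 24 h (0.59 at 2 μM and 6 h, adjusted p = 0.10).

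In Ramos cells 0 of the 13 mRNAs rose with limma, and 10, 11, 0 and 6 fell at 500 nM and 2.5 μM at 6 h and at 500 nM and 2.5 μM at 24 h. Their summed level was between 2257 and 2624 RPKM in untreated cells and between 1775 and 1976 RPKM after 2.5 μM for 6 h. Beside these Ramos counts, 13.8%, 17.3%, 0.0146% and 3.3% of all genes were higher and 9.73%, 10.7%, 0% and 1.31% lower. The Ramos counts of mitochondrial mRNAs are not given with other scalings. The summed level of the nuclear members was 10082 ± 132 RPKM (SD) in untreated HCT116 cells and 10900 ± 799 RPKM after 2 μM for 6 h, and 12330 ± 314 RPKM in untreated Ramos cells and 12618 ± 106 RPKM after 2.5 μM for 6 h. The part of the mitochondrial mRNAs in the results for the nuclear members was not tested.

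**Figure D5:**
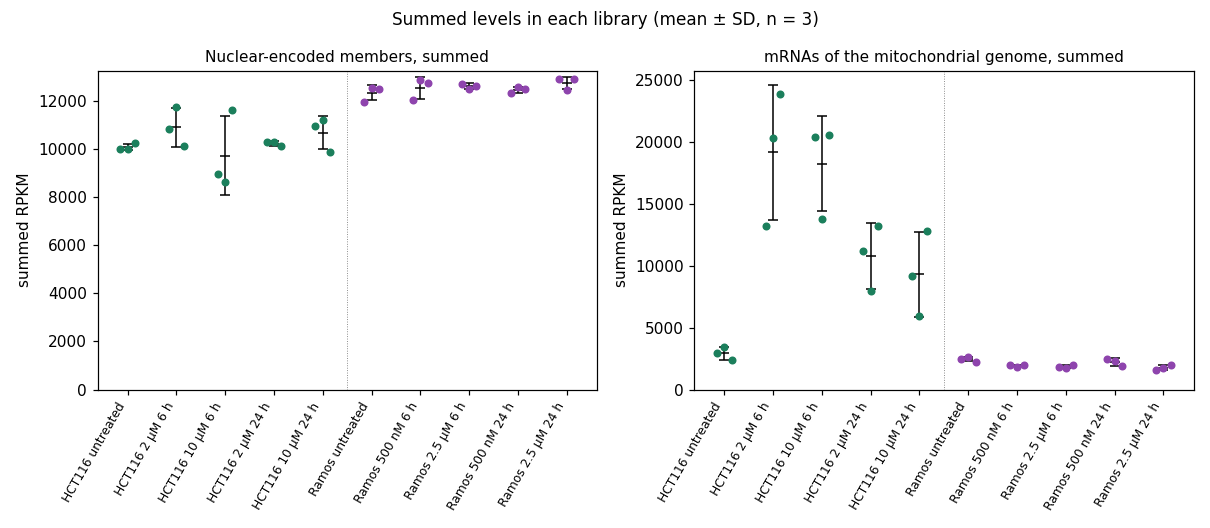
Summed RPKM (y axis, from 0) of the 103 nuclear-encoded members (left) and of the 13 mRNAs of the mitochondrial genome (right) in each library of the 10 groups (x axis), with mean and SD of 3 libraries. The nuclear sum stays between 8636 and 12906 RPKM, and the mitochondrial sum reaches 23920 RPKM in treated HCT116 cells and stays under 2624 RPKM or at it in Ramos cells.

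Genes of the pathway outside the rule were counted by lists. Of 13 genes of the tricarboxylic acid cycle, which feeds complexes I and II, 7, 5, 3 and 3 were lower in the 4 HCT116 comparisons, in the order given for the mitochondrial mRNAs, and 0 were higher at an adjusted p under 0.05, beside 31.8%, 21.2%, 10.8% and 15.7% of all genes lower. With equal-sum scaling 12, 13, 6 and 8 were lower, and with median-ratio scaling 4, 5, 6 and 6, with 1 higher at 2 μM and 6 h. OGDH, a subunit of the 2-oxoglutarate dehydrogenase complex, fell by 0.70 ± 0.08 and SUCLG2, a subunit of succinate-CoA ligase, by 0.61 ± 0.07 at 2 μM and 6 h. In Ramos cells 3, 3, 0 and 0 of the 13 were higher and 0 were lower with limma, beside 13.8%, 17.3%, 0.0146% and 3.3% of all genes higher. With equal-sum scaling 3, 6, 0 and 11 were higher and with median-ratio scaling 2, 1, 0 and 0. In the fit as reported OGDH rose by 0.36 ± 0.07 at 500 nM and 6 h. The median log2 fold changes of the list were -0.22 and -0.38 at 6 h in HCT116 cells, beside -0.12 and -0.11 over all genes.

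Of 40 assembly factors outside the rule, 16 were higher and 8 lower at 2 μM and 6 h in HCT116 cells, beside the 15.5% and 31.8% of all genes given above, among them COX20 (0.90 ± 0.09) and COX15 (-0.61 ± 0.06), which serve complex IV. At 10 μM and 6 h 4 were higher and 5 lower, and at 24 h 7 and 3 at 2 μM and 14 and 3 at 10 μM, where the all-gene shares were 8.84% and 21.2%, 16.6% and 10.8%, and 19.5% and 15.7%. With equal-sum scaling the 4 HCT116 counts were 2 and 14, 0 and 14, 0 and 5, and 1 and 5. In Ramos cells the counts were 4 and 2, 6 and 3, 0 and 0, and 3 and 0, and with equal-sum scaling 6 and 0, 14 and 0, 0 and 0, and 29 and 0. The all-gene shares in Ramos cells, in the fit as reported, were 13.8% and 9.73%, 17.3% and 10.7%, 0.0146% and 0%, and 3.3% and 1.31%. Of 13 genes of the electron carriers and cytochrome c1, 2 were higher and 3 lower at 2 μM and 6 h in HCT116 cells, and COQ8A and COQ5, of ubiquinone synthesis, fell by 0.78 and 0.69 while CYCS, cytochrome c, rose by 0.54. The other HCT116 counts were 0 and 3, 0 and 1, and 2 and 1, and with equal-sum scaling the 4 counts were 0 and 8, 0 and 5, 0 and 2, and 0 and 1. In Ramos cells they were 3 and 1, 4 and 0, 0 and 0, and 2 and 0, with CYC1, cytochrome c1, higher by 0.55 ± 0.05 at 500 nM and 6 h. For this list the all-gene shares in both lines are those given for the assembly factors.

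Of 12 regulators of mitochondrial biogenesis, 11 were tested in HCT116 cells. There 3 were higher and 1 lower at 2 μM and 6 h, with TFB2M, a mitochondrial transcription factor, higher by 0.49 ± 0.08 and TFB1M, a related rRNA methyltransferase, lower by 0.46 ± 0.09. At 10 μM and 6 h 2 were higher and 1 lower, and at 24 h 1 and 3 at 2 μM and 1 and 2 at 10 μM. With equal-sum scaling 0 were higher with limma and 6, 5, 3 and 3 were lower. TFAM, which packages and transcribes the mitochondrial genome, fell by 0.22 ± 0.05 and 0.19 ± 0.06 at 24 h. In Ramos cells the counts were 2 and 1, 1 and 1, 0 and 0, and 2 and 0, beside the all-gene shares given for the assembly factors.

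Of the 103 members, 34 were called in none of the 8 comparisons with untreated cells, 25 in 1, 15 in 2, 17 in 3 and 12 in more. Among the 34, ATP5MGL, COX4I2, COX6A2, COX7A1, COX7B2, COX8C and UQCRHL were under the filter and were not tested in any of the 8. The rest of the 34 include the isoforms COX6B2 and NDUFA4L2 and highly expressed subunits such as COX4I1, COX6B1, COX8A, UQCRH, ATP5MC2 and ATP5MC3. How such counts spread over all genes is not given here. Reads of 33 members may be shared with an overlapping gene on the same strand, and 51 overlap a gene on the other strand. The libraries were made with a strand-specific kit, but the strand setting of the counting is not given in the sources used here. Pseudogenes named after a member exceeded 10% of its level only for SDHA and UQCRFS1 (47.0%).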

How the data were processed

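The submitters removed rRNA from total RNA and made stranded RNA-Seq libraries. The authors deposited RPKM values of 57992 genes, a column for each library. The submitters' processing notes name RSEM without a version, and the aligner, genome build and annotation are not given in the sources used here. Whole reads cannot be recovered from the deposited RPKM, which are fractional. The depth is therefore unknown, and no count model was used. GENCODE 29 gave the symbols by Ensembl identifier, for all but 604 of the genes.

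Log2(RPKM + 0.5) was analysed with limma 3.58.1 in R 4.3.3 (lmFit, eBayes with a trend) over genes that averaged 0.5 RPKM or more in the libraries compared, with Benjamini-Hochberg adjustment over all of them. Each of 19 comparisons used only the libraries of its groups. Tables and figures were made with Python 3.11. The members and lists were chosen with earlier results of these data known. Named with full statistics are at most 3 rises and 3 falls per comparison among called members with a mean of at least 2 RPKM and no overlap, and sets of paralogs, SDH subunits and core subunits of complex I. UQCRC1, UQCRC2, ATP5F1A, ATP5F1B and NDUFB9 were in places also given in full, which was chosen after their values were seen. Other settings tried were pseudocounts of 0.1 and 1, no filter, a mean of 2 RPKM or more, median-ratio scaling, equal-sum scaling (the same total RPKM in each library), a replicate block, all groups in one fit, and each library left out. Removing a lowess trend (span 0.3) on transcript length or GC content, from GENCODE transcripts, was added after seeing the data. The procedure was tested on simulated data. A result for 1 member is not reported here.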

Additional observations from a re-analysis of the deposited data

Results flagged for a closer look

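A test of the interaction showed that the change against untreated cells differed between the lines, with 2 μM in HCT116 cells and 2.5 μM in Ramos cells. At 6 h this held for 34 of 95 members, 20 more positive in HCT116 cells and 14 more negative, beside 12.2% and 28.4% of all genes. The interactions (log2 change in HCT116 cells less that in Ramos cells) were 0.90 for NDUFAF4, 0.70 for SDHAF2, 0.69 for SDHAF3, -0.87 for SDHA, -0.71 for NDUFV1 and -0.64 for UQCRC1. With equal-sum scaling SDHAF2 (0.23) and SDHAF3 (0.22) were not called, and 1 member was more positive and 59 more negative, against 39 and 9 with median-ratio scaling. At 24 h it held for 15 members, 7 more positive and 8 more negative, beside 6.81% and 9.51% of all genes. The interactions were 0.56 for SDHAF4, 0.54 for NDUFB9, 0.39 for ATP5MG, -0.61 for ATP5F1D, -0.43 for ATP5F1A and -0.40 for NDUFS1. With equal-sum scaling SDHAF4 (0.23), NDUFB9 (0.18) and ATP5MG (0.03) were not called, and 0 members were more positive and 63 more negative with limma. The groups have 3 libraries each, too few for the search for single libraries that stand apart within a group.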

How the results depend on the processing

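The depth is unknown, so its limits cannot be given. Of 78 calls of named members over 15 comparisons, 38 were kept under every alternative and 0 changed direction. Counts below are of members called, by comparison with untreated cells unless times, doses or lines are named, and the cause of each move was not tested. The scalings move all genes together, and the shares of all genes under them are not given here. With equal-sum scaling the count went from 14 to 48 at 10 μM and 6 h and from 31 to 18 at 10 μM and 24 h in HCT116 cells, and from 25 to 47 at 2.5 μM and 6 h and from 4 to 63 at 2.5 μM and 24 h in Ramos cells. It went to 14 between the times at 500 nM, to 30 between the Ramos doses at 24 h, and to 60 and 63 for the interactions at 6 h and 24 h. With median-ratio scaling it was 1 at 2.5 μM and 24 h in Ramos cells, 47 between the times at 2 μM and 2 between those at 10 μM. With all groups in one fit it was 26, 25, 4 and 6 in the HCT116 comparisons (2 μM and 10 μM at 6 h, then at 24 h) and 10 at 2.5 μM and 24 h in Ramos cells. It was then 15 and 28 between the times at 2 μM and 10 μM, 1 between the HCT116 doses at 6 h, 4 between the Ramos doses at 24 h, and 22 and 4 for the interactions. Without a filter it was 19 at 10 μM and 24 h in HCT116 cells and 9, 12 and 0 at 500 nM and 2.5 μM at 6 h and at 2.5 μM at 24 h in Ramos cells. It was then 18 and 0 between the HCT116 times, 15 and 13 between the Ramos times, and 0 between the Ramos doses at 24 h. With a mean of at least 2 RPKM it was 4 for those doses. With the trend on length removed, chosen after seeing the data, it was 1 at 2.5 μM and 24 h in Ramos cells, 2 between the times at 10 μM and 2 between the Ramos doses at 24 h. With that on GC content removed, also chosen after seeing the data, it was 15 and 1 at 500 nM and 6 h and at 2.5 μM and 24 h in Ramos cells, and 51 between the times at 2 μM.

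Leaving out a library at a time gave 33 to 50, 4 to 45, 14 to 23 and 21 to 43 calls in the HCT116 comparisons, in the order above. It gave 6 to 24, 10 to 31, 0 to 0 and 1 to 13 in the Ramos comparisons (500 nM and 2.5 μM at 6 h, then at 24 h). Between times it gave 16 to 36, 0 to 39, 15 to 29 and 16 to 25, and between doses 0 to 2, 0 to 0, 0 to 0 and 0 to 3. Between the untreated lines it gave 70 to 79, and for the interactions 26 to 43 and 11 to 16.

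Pairing by replicate number was not shown, since in no comparison did every same-numbered pair correlate above 0.1 (mean correlation of deviations from -0.17 to 0.10). Such a cutoff on 3 pairs cannot exclude a shared culture or batch. For 10 μM at 6 h against untreated HCT116 cells, all same-numbered pairs were positive (0.06, 0.15 and 0.09). With a replicate block the count was 1 at 2.5 μM and 24 h in Ramos cells, 1 between the times at 10 μM, 0 between the Ramos doses at 24 h and 9 for the interaction at 24 h, and no other count moved by over 1.5 times. Between the untreated lines no block could be fitted, since numbers within each line leave no residual degrees of freedom.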
